A study of Mus musculus with 9 samples.

Results

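The Hippo pathway factors YAP and TAZ, their DNA-binding partner TEAD1, the inhibitory kinase LATS2 and 6 of their best known target or regulator genes were followed in mouse brain endothelial cells under 3 kinds of flow. The 10 genes, Yap1, Wwtr1 (which encodes TAZ), Tead1, Lats2, Ccn1, Ccn2, Ankrd1, Amotl2, Ajuba and Axl, were taken by their gene names from a table of 31232 genes. All 10 were listed once and all 10 passed the filter on low counts, as did 15774 genes in all. The cells were bEnd.3, a mouse brain endothelial line immortalised with the polyoma middle T antigen, grown on glass and exposed to flow in a parallel-plate chamber. The PSS group was under laminar flow of 10 dyne/cm2, taken by the submitters for the normal state of brain vessels. The HSS group was under 20 dyne/cm2, also laminar, as in the early stage of an intracranial aneurysm, and the Vortex group under a vortex of 0.5 to 2 dyne/cm2, as in the late stage. Each group had 3 libraries of polyadenylated RNA, all of 1 cell line. A static control was not analysed here, no label gives the duration of flow, and the labels speak of mixed RNA from the groups without saying what was pooled.

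YAP and TAZ are coactivators that carry no DNA-binding domain of their own and act on genes mainly through the TEAD factors. When the Hippo kinases are active, LATS1 and LATS2 phosphorylate YAP and TAZ and keep them out of the nucleus, while actin tension, spreading and low cell density favour their entry. In endothelium they are known for roles in vessel growth and for responding to flow. Much of this control acts on the proteins and is not measured by RNA.

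Most of these genes held a short TEAD sequence just upstream of their start. TEAD factors bind GGAATG, which reads CATTCC on the other strand. In a RefSeq table of promoters on GRCm38.p6, a build other than the GRCm39 of the counts, 8 of the 10 genes matched by symbol, with 10 start sites. GGAATG was searched on both strands in the 250 bases before each start and was found at 8 of these 10 starts, for 7 of the 8 genes. Over all 32851 starts in the table, 12.6% held it in a window of the same length. Genes enter YAP/TAZ target lists partly because TEAD factors bind near them, so this is a description and not a test, and a match is not shown to be a bound site. The 5 target and regulator genes with matches and Yap1 itself are shown 5′ to 3′, since TEAD factors are how YAP and TAZ reach DNA, with every motif match in capitals.
Ccn1, chr3:145649986-145650235, minus strand: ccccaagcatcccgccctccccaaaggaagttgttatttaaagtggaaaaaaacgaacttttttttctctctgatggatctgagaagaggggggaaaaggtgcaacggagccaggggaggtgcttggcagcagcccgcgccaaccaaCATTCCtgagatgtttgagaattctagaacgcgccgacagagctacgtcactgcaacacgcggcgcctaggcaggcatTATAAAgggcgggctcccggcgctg
Ankrd1, chr19:36119845-36120094, minus strand: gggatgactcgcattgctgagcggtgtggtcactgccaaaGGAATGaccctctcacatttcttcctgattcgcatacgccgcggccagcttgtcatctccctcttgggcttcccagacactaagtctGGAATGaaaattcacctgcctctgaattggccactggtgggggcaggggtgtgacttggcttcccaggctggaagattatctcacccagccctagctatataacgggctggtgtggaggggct
Amotl2, chr9:102717554-102717803, plus strand: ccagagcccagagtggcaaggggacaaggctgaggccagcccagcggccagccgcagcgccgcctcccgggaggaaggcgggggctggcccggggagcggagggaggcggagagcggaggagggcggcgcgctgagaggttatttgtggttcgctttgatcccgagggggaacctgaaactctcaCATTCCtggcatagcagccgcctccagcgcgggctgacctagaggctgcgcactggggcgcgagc
Ajuba, chr14:54577662-54577911, minus strand: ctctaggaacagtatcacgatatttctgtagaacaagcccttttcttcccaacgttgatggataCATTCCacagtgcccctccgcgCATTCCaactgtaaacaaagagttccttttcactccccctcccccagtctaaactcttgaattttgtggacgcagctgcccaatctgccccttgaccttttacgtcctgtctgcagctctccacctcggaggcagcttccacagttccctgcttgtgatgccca
Axl, chr7:25788734-25788983, minus strand: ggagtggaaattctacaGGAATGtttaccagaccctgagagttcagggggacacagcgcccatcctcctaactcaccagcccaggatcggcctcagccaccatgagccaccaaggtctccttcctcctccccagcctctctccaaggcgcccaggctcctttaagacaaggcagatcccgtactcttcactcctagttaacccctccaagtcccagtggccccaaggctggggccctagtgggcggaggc
Yap1, chr9:8004597-8004846, minus strand: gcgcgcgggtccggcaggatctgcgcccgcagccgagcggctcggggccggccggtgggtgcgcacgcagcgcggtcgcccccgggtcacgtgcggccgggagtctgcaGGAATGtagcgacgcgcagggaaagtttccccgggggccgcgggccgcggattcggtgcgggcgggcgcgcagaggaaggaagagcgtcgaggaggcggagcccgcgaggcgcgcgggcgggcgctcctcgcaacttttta
The Ccn1 match began 103 bases before the start, and a TATAAA sequence, found in 7.59% of all windows, began 25 bases before it. Ankrd1 held 2 matches, which began 210 and 123 bases before the start. Ajuba also held 2, which began 186 and 164 bases before it. The Amotl2 match began 65 bases, the Yap1 match 141 bases and the Axl match 233 bases before the start. Wwtr1 had 2 annotated starts with the same match, 136 and 170 bases upstream. The AP-1 motif TGANTCA (6.75% of all windows) and the CArG box (1.47%) of serum response factor, both searched on both strands, were not among the letters of any member's window.

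Library depth was 17407217 to 22965802 counts, and the groups differed in how far their libraries stood apart. Over genes with at least 100 counts in a pair of libraries, the median squared difference between a pair was 1.85 to 1.93 times that of counting noise in HSS, 4.13 to 42.8 times in PSS and 37.7 to 235.6 times in Vortex. The HSS libraries were the closest but differed beyond counting noise, and each was kept as a replicate. The labels do not say that replicates were separate cultures, so p-values measure the spread between these libraries, which may be technical. Vortex replicate 2 stood apart: its median log2 difference from PSS was -1.41 in the GC-poorest eighth of genes and 0.90 in the GC-richest. Of 12 endothelial markers 8 fell in HSS against PSS and 0 rose, where 3.70% of all tested genes fell and 4.18% rose. Without Vortex replicate 2 the counts were 11 lower and 1 higher, beside 29.1% of all tested genes that passed. In Vortex against PSS 0 of the markers fell and 1 rose, beside 13.4% of all tested genes. Without Vortex replicate 2 these counts were 10 lower and 1 higher, beside 36.3%. In Vortex against HSS 9 of the 12 markers rose and 0 fell, beside 7.04% of all tested genes. Each of those 9 calls ended without any 1 HSS library. Without Vortex replicate 2 the counts there were 10 higher and 0 lower, beside 23.9%. The HSS against PSS calls of Cdh5, Cldn5, Erg, Esam and Tek ended without any 1 PSS or HSS library. That of Kdr held without each of the 9. The markers' summed FPKM (counts scaled to gene length and library total) was 438 to 570 in PSS, 108 to 109 in HSS and 172 to 1305 in Vortex, with Vortex replicate 2 at the top. Kdr, the main VEGF receptor, was at 399.5 to 471 CPM, counts scaled to a common TMM-adjusted library size, in PSS, 7.12 to 7.74 in HSS and 94.3, 744 and 109 in Vortex, so the HSS libraries went partly against the endothelial label. The junction gene Cdh5 was at 449.6 to 577 CPM in PSS, 119 to 126 in HSS and 329, 1298 and 381 in Vortex, and Pecam1 at 12.4 to 14.2, 1.08 to 1.68 and 1.77, 1456 and 55.1 CPM. Summed FPKM in PSS, HSS and Vortex was 23.5 to 29.2, 33.1 to 35.2 and 15.9 to 53.0 for 8 pericyte and smooth muscle markers, and 38.3 to 51.3, 46.1 to 48.0 and 6.84 to 66.1 for 6 fibroblast markers. It was 4.44 to 5.32, 7.90 to 8.41 and 8.54 to 37.5 for 7 leukocyte markers, 4.49 to 4.66, 2.43 to 3.06 and 2.94 to 12.8 for 4 epithelial markers, and 1.62 to 2.17, 1.63 to 2.31 and 0.830 to 1.08 for 5 neural and glial markers. In PSS the pericyte and fibroblast sums rested mostly on Des (18.3 to 24.9 FPKM) and Col1a1 (29.2 to 42.6). The leukocyte and epithelial sums there rested mostly on Cd68 (2.99 to 4.21) and Krt18 (2.85 to 3.75). Defining markers with 0 counts in a whole group were Epcam and Cdh1 in PSS, Aqp4 and Rbfox3 in HSS, and Aqp4 and Ptprc in Vortex. The part of these shifts in the results below was not tested, and in bulk RNA fewer cells of a type cannot be told apart from less RNA per cell.

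Per gene length, Ccn1 led the group by a wide margin in every condition. Its FPKM was 227 ± 22.7 in PSS, 341 ± 7.34 in HSS and 171 ± 48.0 in Vortex (mean ± SD, n = 3 each, as everywhere below), above each other member in every library of its group and at or above the 97.7th percentile of tested genes in all 9 libraries. Next in PSS came Ccn2 (32.3 ± 12.7), Axl (31.4 ± 5.63), Amotl2 (24.6 ± 8.56), Wwtr1 (23.2 ± 2.48), Yap1 (18.1 ± 4.05), Ajuba (15.6 ± 4.90) and Tead1 (11.2 ± 3.12 FPKM), whose neighbours in that order overlapped. Lats2 (5.76 ± 2.29) and Ankrd1 (1.07 ± 0.351 FPKM) lay below these without overlap. In HSS the order was Ccn1, Axl, Amotl2, Ajuba, Wwtr1, Ccn2, Tead1, Yap1, Lats2 and Ankrd1, and only Wwtr1 with Ccn2 and Ccn2 with Tead1 overlapped as neighbours. In Vortex all neighbours from Axl down to Lats2 overlapped, and Lats2 lay above Ankrd1.

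**Figure D1:**
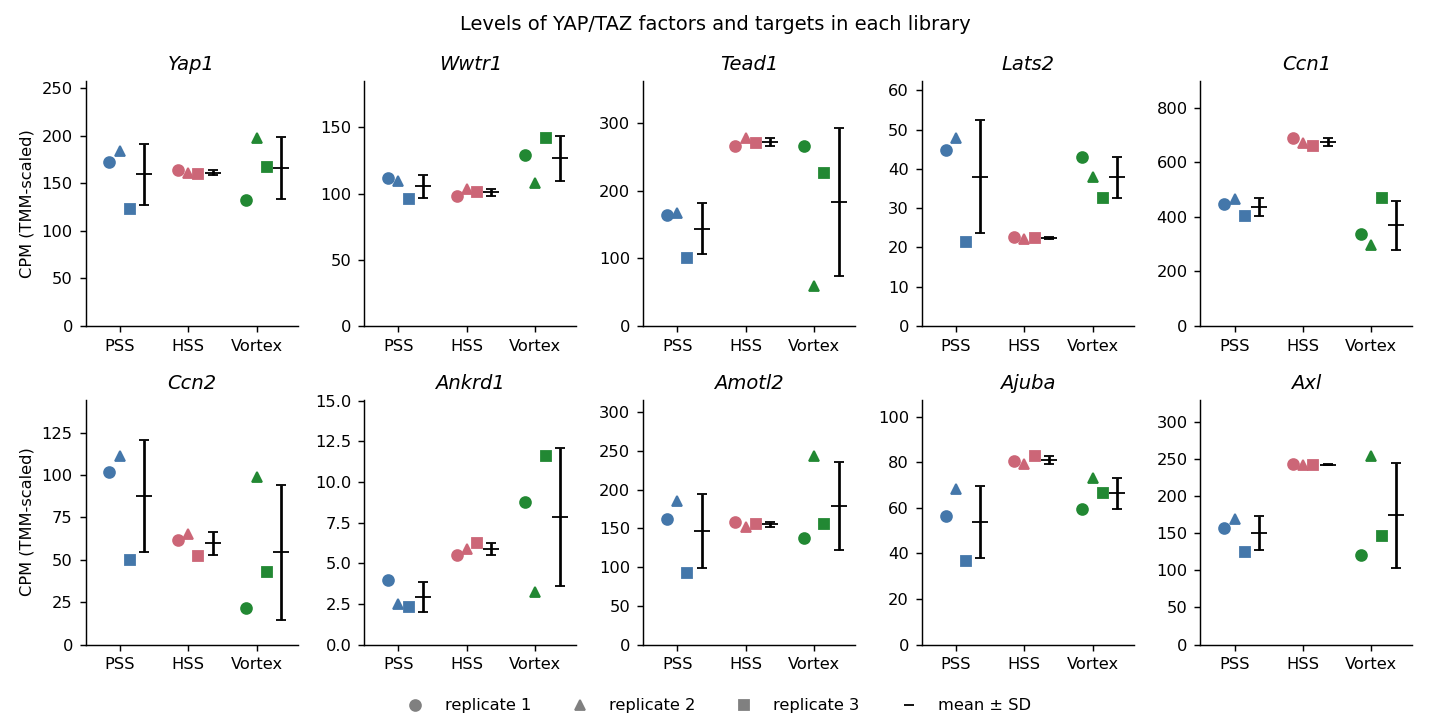
CPM (TMM-scaled, linear axis from 0) of the 10 genes in PSS, HSS and Vortex, with 1 point per library, shapes for replicate numbers and bars for the mean ± SD of 3 libraries. HSS points lie close together for every gene, while PSS replicate 3 is the lowest PSS library for all 10 genes and Vortex replicate 2 lies apart for Tead1, Ccn2, Ankrd1, Amotl2 and Axl.

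Neither coactivator passed in any comparison with all 9 libraries. Yap1 was at 172, 184 and 123 CPM in PSS replicates 1, 2 and 3, at 164, 161 and 159.6 in HSS and at 133, 198 and 167 in Vortex (replicates in this order throughout). All 3 groups overlapped, and its log2 fold change was 0.02 ± 0.21 (SE) for HSS against PSS, 0.06 ± 0.21 for Vortex against PSS and 0.04 ± 0.21 for Vortex against HSS (adjusted p = 0.978, 0.888 and 0.927). Wwtr1 was at 112, 109 and 95.5 CPM in PSS, 98.3, 103 and 101 in HSS and 129, 108 and 142 in Vortex. Its Vortex libraries were all above its HSS libraries and overlapped PSS, where replicate 1 at 112 CPM was above Vortex replicate 2. The log2 fold change of Wwtr1 was -0.06 ± 0.17 for HSS against PSS, 0.26 ± 0.17 for Vortex against PSS and 0.32 ± 0.17 for Vortex against HSS (adjusted p = 0.872, 0.339 and 0.254). With Vortex replicate 2 left out it was 0.36 ± 0.12 against PSS and 0.43 ± 0.12 against HSS, and both passed (adjusted p = 0.0434 and 0.0323). The FPKM ratio of Yap1 to Wwtr1 was 0.666 to 0.867 in PSS, 0.803 to 0.861 in HSS and 0.531 to 0.946 in Vortex. TAZ message was thus the more abundant per length in all 9 libraries, while Yap1 had the higher CPM in each. The ratio rests on the gene lengths behind the deposited FPKM, 9257 bases for Yap1 and 4779 for Wwtr1.

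Tead1, the main DNA-binding partner listed here, did not overlap between the laminar groups and did not pass with all 9 libraries. Of all tested genes 56.2% were also separate there, and 29.9% separate and higher in HSS. Its level was 164, 166 and 101 CPM in PSS, 266, 278 and 271 in HSS and 265, 58.7 and 226 in Vortex. Every HSS library lay above every PSS and Vortex library, and Vortex replicate 2 was the lowest of all 9. The log2 fold change for HSS against PSS was 0.92 ± 0.46 (adjusted p = 0.276), for Vortex against PSS 0.35 ± 0.46 and for Vortex against HSS -0.57 ± 0.46 (adjusted p = 0.659 and 0.469). Without Vortex replicate 2 the first was 0.92 ± 0.18 and the second 0.77 ± 0.20, and both passed (adjusted p = 0.004 and 0.0131), while Vortex against HSS was -0.15 ± 0.20 (0.625). In Vortex replicate 2, Tead1 was at -1.255 from the PSS mean on the log2 scale, and the median of genes of like GC content was at -0.39.

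Among the regulators of YAP and TAZ, Lats2 had its lowest mean in HSS. This kinase, itself a YAP/TAZ target, was at 44.7, 48.0 and 21.5 CPM in PSS, 22.7, 22.0 and 22.5 in HSS and 43.1, 37.9 and 32.6 in Vortex. PSS replicate 3 lay below all HSS libraries and PSS replicates 1 and 2 above them, so the laminar groups overlapped, while Vortex lay wholly above HSS. The log2 fold change was -0.76 ± 0.29 for HSS against PSS (adjusted p = 0.147), 0.76 ± 0.29 for Vortex against HSS (0.134) and -0.01 ± 0.29 for Vortex against PSS (0.989). Without PSS replicate 3, Lats2 passed for both HSS comparisons, at -1.05 ± 0.18 against PSS (adjusted p = 0.0258) and 0.76 ± 0.16 for Vortex against HSS (0.0378). Amotl2, an angiomotin-like scaffold that binds YAP at junctions and is also a target, was at 162, 185 and 92.6 CPM in PSS, 159, 152 and 156 in HSS and 138, 244 and 156 in Vortex. The 3 groups overlapped (log2 fold changes 0.09, 0.29 and 0.20, each with SE 0.29, in the order HSS against PSS, Vortex against PSS and Vortex against HSS, and adjusted p = 0.901, 0.558 and 0.702). Ajuba, a LIM protein that binds and restrains LATS kinases, was at 56.5, 68.3 and 36.9 CPM in PSS, 80.7, 79.4 and 82.7 in HSS and 59.5, 73.3 and 66.4 in Vortex. HSS was above both other groups in every library, with a log2 fold change of 0.59 ± 0.23 against PSS (adjusted p = 0.1595, and 0.0456 without Vortex replicate 2). Vortex against HSS was -0.29 ± 0.23 and Vortex against PSS 0.30 ± 0.23 (adjusted p = 0.466 and 0.419).

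Of the secreted matricellular targets, Ccn1 had its highest mean in HSS and Ccn2 in PSS. Ccn1, which binds integrins and heparan sulfate, was at 445, 466 and 402 CPM in PSS, 691, 671 and 661 in HSS and 338, 298 and 471 in Vortex. All HSS libraries were above all others, and Vortex overlapped PSS because Vortex replicate 3 was above the highest PSS library. Ccn1 fell in Vortex against HSS, with a log2 fold change of -0.87 ± 0.19 (adjusted p = 0.0321), the only call among the 10 genes with all 9 libraries. That call ended without PSS replicate 1 or 2 (adjusted p = 0.0747 and 0.0575) or HSS replicate 1, 2 or 3 (0.146, 0.135 and 0.141), and held without Vortex replicate 2 (-0.74 ± 0.16, 0.00927). It also ended with no filter on low counts (0.0585), with the replicate number as a block (0.0776) and in a fit of the 6 compared libraries alone (0.0890). For HSS against PSS the log2 fold change was 0.62 ± 0.19 (adjusted p = 0.0834), which passed without Vortex replicate 2 (0.62 ± 0.14, 0.00758) or Vortex replicate 3 (0.0464), and for Vortex against PSS it was -0.25 ± 0.19 (0.430). Ccn2, its relative with roles in matrix production, was at 102, 111 and 50.02 CPM in PSS, 61.6, 65.3 and 52.4 in HSS and 21.4, 98.9 and 42.7 in Vortex. PSS replicates 1 and 2 and Vortex replicate 2 were the 3 high libraries, and no pair of groups was separate. The log2 fold change of Ccn2 was -0.55 ± 0.50 for HSS against PSS, -0.69 ± 0.50 for Vortex against PSS and -0.14 ± 0.50 for Vortex against HSS (adjusted p = 0.575, 0.399 and 0.894). In the fit without Vortex replicate 2, Ccn2 was lower in Vortex than in PSS by a log2 fold change of -1.44 ± 0.36 (adjusted p = 0.0116). The FPKM ratio of Ccn1 to Ccn2, chosen after the values were seen, was 6.22, 5.94 and 11.4 in PSS, 15.9, 14.6 and 17.9 in HSS and 22.4, 4.27 and 15.6 in Vortex, higher in each HSS library than in any PSS library.

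Ankrd1 and Axl completed the targets. Ankrd1, an ankyrin repeat protein of the nucleus and the muscle sarcomere, was scarce, at 3.99, 2.48 and 2.32 CPM in PSS, 5.52, 5.89 and 6.26 in HSS and 8.77, 3.24 and 11.6 in Vortex. These levels rest on 49 to 79 counts per PSS library, 105 to 119 per HSS library and 68 to 235 per Vortex library. HSS lay above PSS without overlap, and Vortex replicates 1 and 3 were the highest libraries of all while Vortex replicate 2 lay within the PSS range. The log2 fold change was 1.01 ± 0.44 for HSS against PSS (adjusted p = 0.209), 1.42 ± 0.44 for Vortex against PSS (0.064) and 0.42 ± 0.43 for Vortex against HSS (0.582). Without Vortex replicate 2 the first 2 were 1.01 ± 0.25 and 1.80 ± 0.27 (adjusted p = 0.0129 and 0.000718), and by the DESeq2 Wald test Vortex against PSS passed with all libraries (1.40 ± 0.46, adjusted p = 0.0167). Axl, a receptor tyrosine kinase for the ligand GAS6, was at 158, 169.9 and 125 CPM in PSS, 244, 242 and 243 in HSS and 121, 255 and 147 in Vortex. The HSS libraries were all above PSS, and Vortex spanned both, with replicate 2 the highest of the 9 libraries. The log2 fold change of Axl was 0.69 ± 0.27 for HSS against PSS, 0.21 ± 0.27 for Vortex against PSS and -0.48 ± 0.27 for Vortex against HSS (adjusted p = 0.162, 0.651 and 0.292). In the fit that left out Vortex replicate 2, Axl was higher in HSS than in PSS (0.69 ± 0.14, adjusted p = 0.00447) and lower in Vortex than in HSS (-0.86 ± 0.16, 0.00489). In Vortex replicate 2, Axl was at 0.77 from the PSS mean on the log2 scale, and the median of genes of like GC content was at 0.76. Amotl2 was also near its median (0.79 and 0.76). Yap1, Wwtr1 (0.04 and -0.84), Ccn2 and Ankrd1 lay above theirs, and Tead1, Lats2, Ccn1 and Ajuba (0.49 and 0.90) below.

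**Figure D2:**
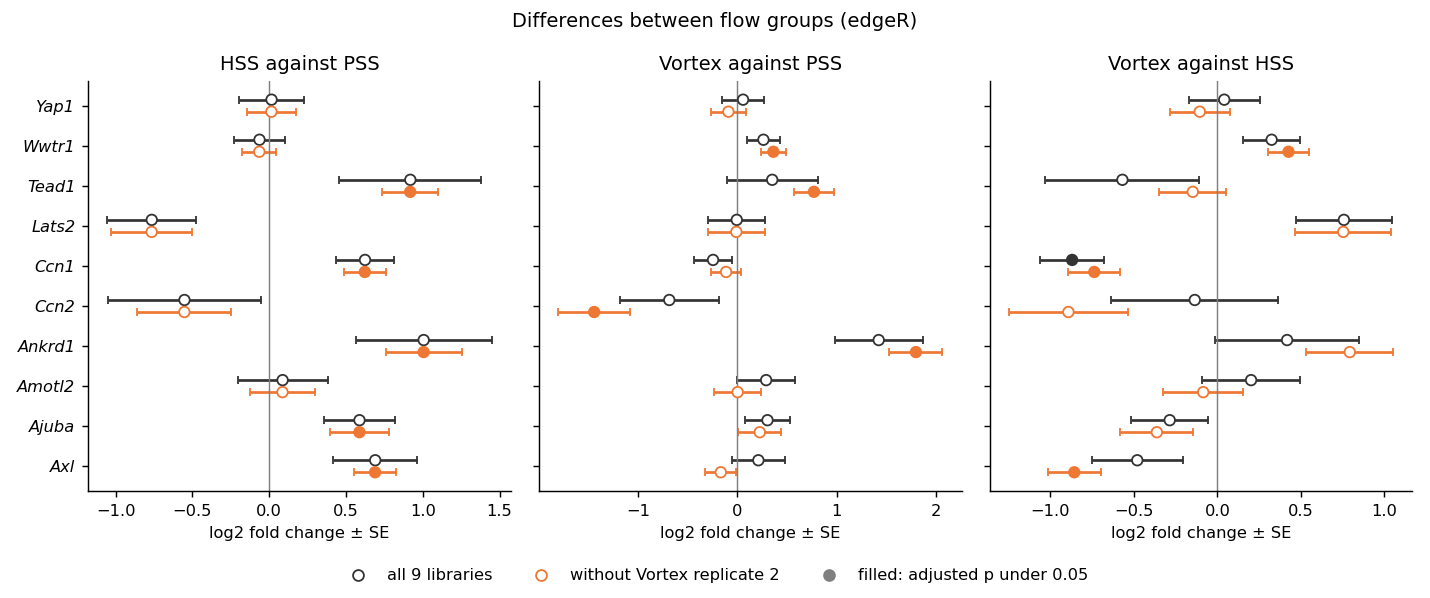
Log2 fold change ± SE of the 10 genes in the 3 comparisons by edgeR, with all 9 libraries in black and without Vortex replicate 2 in orange, filled where the adjusted p is under 0.05. With all libraries the single filled point is Ccn1 in Vortex against HSS (-0.87), and without Vortex replicate 2 Tead1, Ccn1, Ankrd1, Ajuba and Axl are filled for HSS against PSS.

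For HSS against PSS, 0 of the 10 genes passed, where 7.87% of all tested genes did (4.18% higher and 3.70% lower). An unadjusted p under 0.05 was found for 5 of the 10, beside 3693 of all 15774 tested genes. Lats2 was the 1 gene of these 5 with a negative value. DESeq2 also called 0, beside 12.3%, and so did limma-voom. The median log2 fold change was 0.34, against -0.00487 over all tested genes. The groups did not overlap for 5 of the 10, close to the 56.2% of all tested genes. All 5, Tead1, Ccn1, Ankrd1, Ajuba and Axl, were higher in HSS and 0 were lower, where 29.9% of all tested genes were separate and higher and 26.3% separate and lower. With Vortex replicate 2, a library of neither group, left out, the same 5 genes passed and all were higher, beside 29.1% of all tested genes. A fit of the PSS and HSS libraries alone also called 5, with Tead1, Ccn1, Ankrd1 and Axl higher and Lats2 lower, beside 40.8% of all tested genes. The count was 1 without PSS replicate 3 (Lats2) and 1 without Vortex replicate 3 (Ccn1). Over all tested genes, the calls ranged from 285 to 4730 when 1 library was left out.

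For Vortex against PSS, 0 of the 10 passed by edgeR, beside 13.4% of all tested genes (8.33% higher and 5.03% lower). An unadjusted p under 0.05 was found for 1, Ankrd1, beside 4706 of all 15774 tested genes. The DESeq2 Wald test called 1, beside 19.6%, and limma-voom 0. A fit of the 6 compared libraries alone called 0 beside 0.488%, and 3 (Tead1 and Ankrd1 higher, Ccn2 lower) beside 23.2% with Vortex replicate 2 left out as well. The groups overlapped for all 10, while 30.0% of all tested genes were separate. The median log2 fold change of the 10 was 0.24, against 0.11 for all tested genes, and -0.00485 against 0.01 without Vortex replicate 2. Without that library, Wwtr1, Tead1 and Ankrd1 were higher and Ccn2 lower, 4 of 10 beside 36.3% of all tested genes. For Vortex against HSS, 1 of 10 passed beside 7.04% of all tested genes (4.37% higher and 2.67% lower), and DESeq2 called the same 1 beside 16.0%. The groups did not overlap for 5 of 10 beside 36.4%, with Wwtr1 and Lats2 higher in Vortex (19.5% of all tested genes) and Tead1, Ccn1 and Ajuba lower (16.9%). Without Vortex replicate 2, Wwtr1 was higher and Ccn1 and Axl lower, 3 of 10 beside 23.9%. The count was 2 without PSS replicate 3 (Ccn1 and Lats2) and 0 without PSS replicate 1 or 2 or any 1 HSS library. Over all tested genes, the calls ranged from 25 to 3887 when 1 library was left out. The 6 compared libraries alone gave 0 beside 0.438%, and, with Vortex replicate 2 left out as well, 6 beside 27.3%, with Wwtr1, Lats2 and Ankrd1 higher and Ccn1, Ajuba and Axl lower. With the trend over GC content removed, the count was 0 for HSS against PSS (9.32% of all tested genes), 0 for Vortex against PSS (9.41%) and 2, Ccn1 and Axl, for Vortex against HSS (8.96%). Leaving out Vortex replicate 2 as well made these 5 (29.8%), 4 (37.5%) and 4 (26.3%). Vortex against PSS and HSS against PSS share the PSS libraries, and the comparisons with HSS share the HSS libraries, so their values are not independent.

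Within groups, PSS replicate 3 was the lowest PSS library for 10 of 10, where it was lowest for 46.7% of all tested genes. Its shortfall was largest for Lats2 and Ccn2, whose highest PSS library was 2.24 and 2.22 times the lowest, and smallest for Ccn1 and Wwtr1, with 1.16 and 1.17. In HSS this span was 1.01 for Axl to 1.247 for Ccn2. In Vortex it was 4.61 for Ccn2, 4.52 for Tead1 and 3.58 for Ankrd1, and 1.23 for Ajuba, the lowest. Relative to the PSS mean, Vortex replicates 1 and 3 were on the same side for Wwtr1, Tead1, Ankrd1 and Ajuba, all above it, and for Ccn2 and Axl, both below it. Vortex replicate 2 was on the other side from them for Tead1, Ccn2 and Axl.

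**Figure D3:**
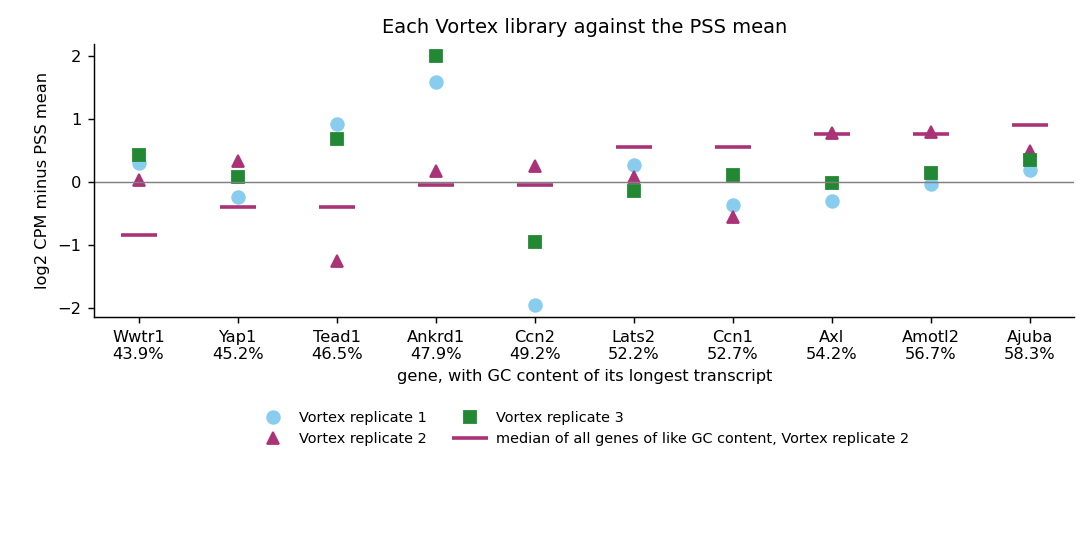
Log2 CPM (prior count 2) of each Vortex library minus the PSS mean for the 10 genes, ordered by the GC content of the longest GENCODE transcript, with dashes for the median of all tested genes in the same eighth of GC content in Vortex replicate 2. Vortex replicate 2 lies near that median for Axl (0.77 and 0.76) and below it for Tead1 (-1.255 and -0.39) and Ccn1 (-0.55 and 0.56), and Vortex replicates 1 and 3 lie at 1.59 and 1.99 for Ankrd1.

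The kinases and scaffolds upstream of YAP and TAZ were given by a list of 21 genes, all tested. In HSS against PSS, 1 rose, 1 fell and 19 did not pass, where 7.87% of all tested genes passed, with a median log2 fold change of -0.07 against -0.00487 over all tested genes. The counts were 3 higher and 5 lower without Vortex replicate 2, beside 29.1% of all tested genes. Taok3, a kinase that can activate the Hippo kinases, was at 15.8 to 21.9 CPM in PSS and 34.8 to 36.7 in HSS (log2 fold change 0.85 ± 0.21, adjusted p = 0.0417). Amot, the angiomotin that binds YAP, was at 57.7 to 77.0 CPM in PSS and 33.5 to 35.3 in HSS (-1.03 ± 0.21, adjusted p = 0.0201). Vortex against PSS gave the same counts and the same 2 genes, Taok3 at 39.8 to 56.6 CPM (1.21 ± 0.21, adjusted p = 0.00907) and Amot at 26.9 to 41.8 CPM (-1.04 ± 0.21, adjusted p = 0.0138), with a list median of 0.20 against 0.11 (13.4% of all tested genes passed). The counts there were 5 higher and 4 lower without Vortex replicate 2 (36.3% of all tested genes), and the median 0.06 against 0.01. Amotl1, the third angiomotin, was at 146 to 198 CPM in PSS, 118 to 119.5 in HSS and 238 to 286 in Vortex, where the groups were separate in each comparison. It rose in Vortex against HSS (1.17 ± 0.18, adjusted p = 0.0114) and missed the threshold in HSS and in Vortex against PSS (-0.58 ± 0.17 and 0.59 ± 0.17, adjusted p = 0.0779 and 0.0546). Wtip, a relative of Ajuba, also rose in Vortex against HSS (1.11 ± 0.28, adjusted p = 0.0468), 2 of 21 in all with 0 lower (7.04% of all tested genes passed), and without Vortex replicate 2 the counts were 4 and 0 (23.9%). Amotl2 had no such separation in any comparison. The HSS call of Taok3 ended with library totals, with no filter and by limma on log2 FPKM, and the call of Wtip in Vortex against HSS under these settings and by limma-voom. The HSS calls of Taok3 and Amot ended without HSS replicate 1, 2 or 3 and PSS replicate 1 or 2, and that of Taok3 also without PSS replicate 3 (adjusted p up to 0.158 and 0.110). The Vortex against PSS call of Amot ended without PSS replicate 1 or 2 (up to 0.0740), and the Vortex against HSS calls of Amotl1 and Wtip without any 1 HSS library, that of Wtip also without PSS replicate 1 or 2 (up to 0.0850 and 0.196).

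Of the other DNA-binding partners and VGLL cofactors, 5 of 7 listed names were matched and 4 tested. Tead4 was at 46.2, 52.8 and 42.3 CPM in PSS, 17.6, 17.5 and 17.4 in HSS and 77.3, 113 and 43.1 in Vortex. It fell in HSS against PSS (log2 fold change -1.43 ± 0.31, adjusted p = 0.0263) and rose in Vortex against HSS (2.15 ± 0.32, adjusted p = 0.0112). Tead1, by contrast, had its highest mean in HSS. The first call ended when any 1 of the PSS and HSS libraries was left out (maximum adjusted p 0.118) and the second without any 1 HSS library (up to 0.0843). Tead2 was at 99.99 to 129 CPM in PSS, 97.3 to 101 in HSS and 106 to 296 in Vortex, and Tead3 at 8.29 to 12.1, 13.6 to 15.4 and 5.81 to 14.8 CPM. Neither passed in any comparison, nor did Vgll4, a TEAD cofactor that competes with YAP. Of the 4 tested, 1 fell in HSS against PSS, 0 passed in Vortex against PSS and 1 rose in Vortex against HSS. Of all tested genes 7.87%, 13.4% and 7.04% passed. Without Vortex replicate 2 the counts of the list were the same, beside 29.1%, 36.3% and 23.9%.

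Other genes reported as YAP/TAZ targets in cancer cells were given by a list of 16, of which 14 were tested. In HSS against PSS, 2 rose, 2 fell and 10 did not pass (median -0.09 against -0.00487 over all tested genes, of which 7.87% passed). There were 6 higher and 2 lower without Vortex replicate 2, beside 29.1% of all tested genes. Nuak2, an AMPK-related kinase, was at 4.55, 4.77 and 4.55 CPM in PSS, 15.8, 16.2 and 16.2 in HSS and 4.16, 4.43 and 7.06 in Vortex. It rose in HSS against PSS (log2 fold change 1.80 ± 0.25, adjusted p = 0.0047) and fell in Vortex against HSS (-1.62 ± 0.25, adjusted p = 0.0128), with its highest mean in HSS, as for Ccn1. Myof, a ferlin of the plasma membrane, was at 259 to 296 CPM in PSS, 654 to 678 in HSS and 334 to 974 in Vortex, and rose in HSS and Vortex against PSS (1.27 ± 0.32 and 1.23 ± 0.32, adjusted p = 0.0452 and 0.0372). Both Myof calls ended with library totals, by limma-voom and by limma on log2 FPKM. Rbms3, an RNA-binding protein, was at 33.2 to 37.7 CPM in PSS, 7.47 to 7.85 in HSS and 8.43 to 11.7 in Vortex, and fell in both (-2.21 ± 0.20 and -1.87 ± 0.20, adjusted p = 0.00134 and 0.00224). Tgfb2, the cytokine TGF-beta 2, fell in both too (-1.62 ± 0.34 and -1.22 ± 0.34, adjusted p = 0.0228 and 0.0443). In Vortex against PSS the counts were again 2 higher, 2 lower and 10 not passing (median 0.14 against 0.11, and 13.4% of all tested genes passed), with Gadd45a, a stress and DNA damage gene, as the second that rose (1.66 ± 0.34, adjusted p = 0.0150). They were 4 higher and 2 lower without Vortex replicate 2 (36.3% of all tested genes) and the median 0.29 against 0.01. In Vortex against HSS, Nuak2 was the 1 of 14 that passed (7.04% of all tested genes), and without Vortex replicate 2 the counts were 4 higher and 1 lower (23.9%). The HSS calls of Nuak2 and Rbms3 and the Vortex call of Rbms3 against PSS held without each of the 9 libraries in turn. The call of Nuak2 against HSS ended without any 1 HSS library (adjusted p up to 0.0843), those of Tgfb2 and Myof when any 1 of the PSS and HSS libraries was left out (up to 0.133 and 0.158) and that of Gadd45a without any 1 PSS library (up to 0.0680). Those of Myof and the Vortex call of Tgfb2 also ended without Vortex replicate 3, and the Vortex call of Myof also without Vortex replicate 1.

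**Figure D4:**
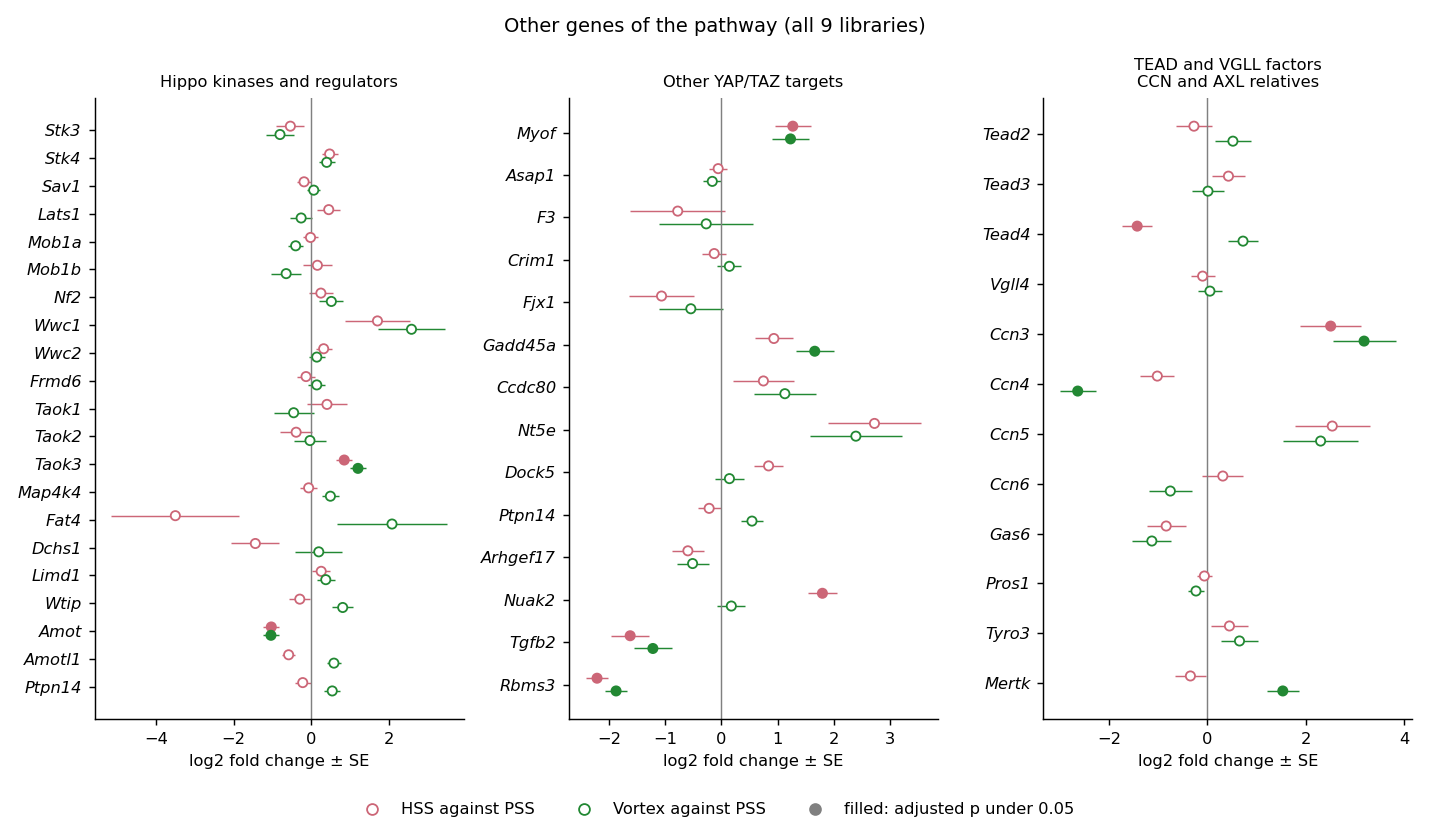
Log2 fold change ± SE of the tested genes of 4 lists for HSS against PSS (red) and Vortex against PSS (green), with all 9 libraries and filled where the adjusted p is under 0.05. Amot, Rbms3 and Tgfb2 lie to the left and Taok3, Myof and Ccn3 to the right in both comparisons, and Tead4 lies at -1.43 in HSS and 0.72 in Vortex.

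Relatives of the CCN targets and of Axl were given by a list of 8 genes, all tested. Of these, 1 rose in HSS against PSS and 7 did not pass, and 2 rose, 1 fell and 5 did not pass in Vortex against PSS (7.87% and 13.4% of all tested genes passed). Without Vortex replicate 2 the counts were 2 higher and 2 lower, and 3 higher and 2 lower (29.1% and 36.3%). Ccn3, a CCN protein often opposed to Ccn2 in matrix biology, was at 31.1 to 36.1 CPM in PSS, 189 to 197 in HSS and 403, 52.3 and 467 in Vortex, and rose in both (log2 fold change 2.50 ± 0.62 and 3.18 ± 0.64, adjusted p = 0.0425 and 0.0137). Ccn4, a Wnt-induced relative, was at 89.2 to 153 CPM in PSS, 60.0 to 64.4 in HSS and 11.6 to 31.2 in Vortex. It fell in Vortex against PSS and against HSS (-2.64 ± 0.36 and -1.62 ± 0.35, adjusted p = 0.00447 and 0.0305). Ccn5 was at 3.69 to 4.69, 23.3 to 25.0 and 2.29 to 41.1 CPM and did not pass (2.53 ± 0.76 in HSS, adjusted p = 0.0790). Mertk, a receptor of the same family as Axl, rose in Vortex against PSS and HSS (1.53 ± 0.32 and 1.88 ± 0.33, adjusted p = 0.0162 and 0.0159), while their shared ligand gene Gas6 was at 418 to 503 CPM in PSS, 254 to 263 in HSS and 103 to 375 in Vortex and did not pass (adjusted p = 0.242 and 0.0910 against PSS). The Vortex against PSS call of Ccn4 held without each of the 9 libraries. Those of Ccn3 and Mertk ended without any 1 PSS library (largest adjusted p 0.0706 and 0.0681), and that of Ccn3 in HSS when Vortex replicate 3 or any 1 of the PSS and HSS libraries was left out (up to 0.166). The HSS call of Ccn3 also ended with no filter, by limma-voom and by limma on log2 FPKM, and its Vortex call on log2(FPKM + 1). In Vortex against HSS, 1 of the 8 (Mertk) rose, 1 (Ccn4) fell and 6 did not pass, beside 7.04% of all tested genes. Without Vortex replicate 2 these counts were 2 higher and 2 lower (23.9%). Against HSS, Mertk did not pass without any 1 HSS library and Ccn4 without any 1 HSS library or PSS replicate 1 or 2 (up to 0.101 and 0.1298).

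Actin and SRF genes, which respond to the same cytoskeletal tension, were given by a list of 18 with 16 tested. In HSS against PSS 0 passed by edgeR, beside 7.87% of all tested genes (median 0.09 against -0.00487 over all tested genes). An unadjusted p under 0.05 was found for 4 of the 16, beside 3693 of all 15774 tested genes. Of the 16, 3 were higher and 3 lower without Vortex replicate 2, beside 29.1%. Srf, the serum response factor, was at 28.3 to 46.0 CPM in PSS, 65.1 to 69.2 in HSS and 49.1 to 70.3 in Vortex, above PSS in every library of both other groups, and missed the threshold in both (log2 fold change 0.83 ± 0.22 and 0.68 ± 0.22, adjusted p = 0.0533 and 0.0728). Tpm2, a tropomyosin near the limit of detection, and Vcl, the focal adhesion protein vinculin, were separate between the laminar groups without passing (1.82 ± 0.49 and -0.49 ± 0.17, adjusted p = 0.0569 and 0.116). In Vortex against PSS, Tagln2, an actin-binding transgelin, rose and Cald1, the actin regulator caldesmon, fell (0.86 ± 0.13 and -1.10 ± 0.19, adjusted p = 0.00614 and 0.00795), with 14 of 16 not passing and a median of 0.63 against 0.11 (13.4% of all tested genes passed). Without Vortex replicate 2 the counts were 4 higher and 1 lower (36.3%) and the median 0.26 against 0.01. Both calls held without each of the 9 libraries in turn. The same 2 of 16 genes passed in Vortex against HSS, beside 7.04% of all tested genes (0.59 ± 0.13 and -0.72 ± 0.19, adjusted p = 0.0353 and 0.0497). These last calls ended without PSS replicate 1 or 2, any 1 HSS library or Vortex replicate 3, and that of Cald1 also without PSS replicate 3 (adjusted p up to 0.172 and 0.187). With no filter both also ended, and that of Tagln2 also with library totals and by limma on log2 FPKM and that of Cald1 with DESeq2 size factors. A fit of the 6 compared libraries alone ended each Vortex call named for these lists except that of Rbms3 against PSS, and removing the GC trend ended those of Amot and Tagln2.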

How the data were processed

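RNA of bEnd.3 cells was sequenced as 9 libraries, 3 per flow group. Per the submitters' processing notes, reads were handled with HISAT2 and HTSeq 0.13.5 on GRCm39. How strand was treated in counting is not given in these sources, so reads of a gene and an antisense partner cannot be told apart. The authors deposited whole-number counts per gene and FPKM for each library in 1 table. The deposited FPKM values equal the count over gene length and column total, so they add no depth of their own.

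The counts were tested with edgeR 4.0.16 in R 4.3.3 (filterByExpr, TMM factors, robust quasi-likelihood fit, 1 mean per group over all 9 libraries), with Benjamini-Hochberg adjustment over 15774 genes and a threshold of 0.05. Every adjusted p in the text is from this test unless another tool or setting is named. Fits that left out libraries had their own filter, adjustment and share of tested genes. These were 16233 genes without Vortex replicate 2 and 15277 with the PSS and HSS libraries alone. The biological coefficient of variation was 0.350. SEs are the log2 fold change over the root of F. The fit was first run on simulated data with the same spread in every library. The real groups differ in spread, so that run does not test how well the pooled fit suits them.

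The 10 genes and all lists were chosen with earlier results of these data known. Named are all 10 genes, the 3 tested genes of each pathway list with the smallest p in HSS against PSS and in Vortex against PSS, Kdr, Cdh5 and Pecam1 as checks of the cell line and, chosen after their values were seen, further genes that passed and Gas6, the ligand gene of Axl. Alternatives were DESeq2 1.42.0, limma 3.58.1 (voom, and log2 of FPKM with a pseudocount of 1 or 0.1), other scalings and filters, a replicate block, the 6 compared libraries alone, a GC correction (lowess span 0.3, with GC content of the longest GENCODE transcript for 98.5% of tested genes) and leaving out each library. A fit of the compared libraries without Vortex replicate 2, and the GC correction without it, were added after seeing the data.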

Additional observations from a re-analysis of the deposited data

How the results depend on the processing

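Counts of the 10 genes that passed moved as follows. In HSS against PSS the count was 0, and it was 5 with the 6 compared libraries alone, 5 with the GC trend removed and Vortex replicate 2 left out, and 0 to 5 when 1 library was left out. In Vortex against PSS it was 0, and it was 1 by the DESeq2 Wald test, 4 with the GC trend removed and Vortex replicate 2 left out, 3 with the compared libraries without Vortex replicate 2, and 0 to 4 when 1 library was left out. In Vortex against HSS it was 1, and it was 0 with no filter, 0 with the replicate block, 0 with the 6 compared libraries alone, 2 with the GC trend removed (Ccn1 and Axl), 4 with the GC trend removed and Vortex replicate 2 left out, 6 with the compared libraries without Vortex replicate 2, and 0 to 3 when 1 library was left out. The causes of these moves were not tested.

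Over all tested genes, the 1242 calls of HSS against PSS became 772 with the replicate block, 2188 by DESeq2, 6233 with the 6 compared libraries alone and 4840 with the GC trend removed and Vortex replicate 2 left out, and 285 to 4730 when 1 library was left out. The 2107 of Vortex against PSS became 1258, 3253, 74 and 6093 under the same settings, 3664 with the compared libraries without Vortex replicate 2, and 519 to 5888 when 1 library was left out. The 1111 of Vortex against HSS became 357, 2466, 66 and 4262 under the same settings, 713 with no filter, 4201 with the compared libraries without Vortex replicate 2, and 25 to 3887 when 1 library was left out. The replicate numbers share only a number: same-numbered libraries had deviation correlations of -0.12 to 0.01 for HSS with PSS, 0.01 to 0.04 for Vortex with HSS and -0.05 to 0.12 for Vortex with PSS, and 0, 5 and 4 of 6 libraries correlated best with their own number. The replicate block ended the call of Ccn1 in Vortex against HSS (adjusted p = 0.0776), the 1 call among the 10 genes. It also ended the HSS against PSS calls of Taok3, Myof and Ccn3, the Vortex against PSS calls of Myof and Tgfb2, and the Vortex against HSS calls of Wtip, Ccn4, Tagln2 and Cald1, and no other call named for the pathway lists. With the GC trend removed, the calls of Amot in Vortex against PSS and of Tagln2 in both Vortex comparisons ended. The median log2 fold change of all tested genes in Vortex against PSS and against HSS was 0.11 and 0.10, and -0.06 and -0.03 with library totals, -0.01 and -0.01 by limma-voom, -0.07 and -0.05 on log2(FPKM + 1) and -0.15 and -0.12 on log2(FPKM + 0.1).

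Of 210, 220 and 220 values of the 10 genes under the alternatives of HSS against PSS, Vortex against PSS and Vortex against HSS, 180, 183 and 188 kept their direction and side of the threshold, and 13, 25 and 12 changed sign. No value that changed sign had passed the test. With DESeq2 size factors the log2 fold change was Yap1 -0.0059 in HSS against PSS. With library totals the log2 fold change was Yap1 -0.025 in HSS against PSS, Yap1 -0.12 in Vortex against PSS and Yap1 -0.093 in Vortex against HSS. With no filter the log2 fold change was Yap1 -0.013 in HSS against PSS. By the DESeq2 Wald test the log2 fold change was Yap1 -0.0048 in HSS against PSS. By limma on log2(FPKM + 1) the log2 fold change was Yap1 -5.7e-05 in HSS against PSS, Yap1 -0.11, Tead1 -0.022 and Axl -0.021 in Vortex against PSS and Yap1 -0.11 in Vortex against HSS. With the 6 compared libraries alone the log2 fold change was Yap1 -0.012 in HSS against PSS. With the GC trend removed the log2 fold change was Wwtr1 0.0068 and Amotl2 -0.088 in HSS against PSS, Amotl2 -0.14, Ajuba -0.10 and Axl -0.14 in Vortex against PSS and Amotl2 -0.053 in Vortex against HSS. With the GC trend removed and Vortex replicate 2 left out the log2 fold change was Wwtr1 0.0053 and Amotl2 -0.090 in HSS against PSS, Yap1 -0.023, Amotl2 -0.22, Ajuba -0.00059 and Axl -0.33 in Vortex against PSS and Yap1 -0.089 and Amotl2 -0.13 in Vortex against HSS. By limma on log2(FPKM + 0.1) the log2 fold change was Yap1 -0.11, Tead1 -0.050 and Axl -0.023 in Vortex against PSS and Yap1 -0.11 in Vortex against HSS. With the compared libraries without Vortex replicate 2 the log2 fold change was Yap1 -0.088 and Axl -0.16 in Vortex against PSS and Yap1 -0.10 and Amotl2 -0.084 in Vortex against HSS. With the replicate block the log2 fold change was Lats2 0.039 in Vortex against PSS. By limma-voom the log2 fold change was Lats2 0.069 in Vortex against PSS. Leaving out 1 library at a time gave ranges across 0 in HSS against PSS for Yap1 -0.14 to 0.12 and Amotl2 -0.16 to 0.29. Leaving out 1 library at a time gave ranges across 0 in Vortex against PSS for Yap1 -0.098 to 0.16, Tead1 -0.044 to 0.77, Lats2 -0.29 to 0.19 and Axl -0.17 to 0.36. Leaving out 1 library at a time gave ranges across 0 in Vortex against HSS for Yap1 -0.11 to 0.16, Ccn2 -0.89 to 0.22 and Amotl2 -0.085 to 0.34.

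The number of libraries, 3 a group, limits the precision, and every SE pools the spread of the HSS, PSS and Vortex libraries, which differ in it. Ankrd1 rests on 49 to 235 counts a library. RNA levels do not measure YAP or TAZ protein or its location.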
